A study of Mus musculus with 6 samples.

Results

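Interferon-stimulated genes are genes that a cell switches on after it receives interferon. A list of 47 such genes was followed here through every cell type recovered from mouse proximal pulmonary arteries (PAs), as the 47 rows, of 53647 genes measured, whose symbol is on the list. Of the 47 genes, 45 had at least 1 count in some cell type of some library, while Ifi47 and Igtp, which encode immunity-related GTPases, had none anywhere. Whether these 2 genes are silent or their reads were not assigned to them was not tested. The counts came from single cell RNA sequencing of C57BL/6J wild-type mice, with 1 library per mouse. The 2 young libraries were from mice of 3 months, and the 4 old libraries were from mice of 20, 24, 27 and 28 months. The labels mark young library 2 and the 28-month library as female and the 27-month library as male, and give no sex for the others. Arteries were taken with surrounding tissue and digested, so the cells include airway, mesothelial and lymphoid cells beside those of the wall. The study had another young mouse, whose data are not analysed here. Old was compared with young, and cell types were compared with each other within libraries.

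Interferons are secreted proteins that bind receptors on the cell surface and activate the Janus kinases. These phosphorylate transcription factors such as Stat2, which joins Irf9 to bind a short DNA element, the interferon-stimulated response element, in front of the responding genes. The products sense foreign nucleic acids, block steps of virus growth, tag or cleave proteins and RNA, and feed back on the pathway itself. Cells also keep some of these genes on without infection, and macrophages are well known for doing so.

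The response element is the sequence feature that links these genes, so the promoter windows were searched for it. A RefSeq window of 250 bases before to 50 bases after the transcription start (GRCm38.p6) was at hand for 36 of the 47 members. The letters GAAA, any pair of bases (NN) and GAAA again, or TTTC, NN and TTTC for the other strand, stood in the windows of 21 of these 36 members (58.3%), against 3.99% of 27025 genes with a window. Windows of 170 bases are shown for 8 members on which the results below turn, 6 with a match and 2 without one. Capitals mark the match, with overlapping matches joined in 1 run, and all are written along the gene's own strand.

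The windows below, from RefSeq on GRCm38.p6, lie at chr4:156200819-156200988 (reverse strand) for Isg15, chr19:34583359-34583528 (forward strand) for Ifit3, chr3:142620493-142620662 (forward strand) for Gbp2 and chr8:61927917-61928086 (forward strand) for Ddx60. Those of the remaining members lie at chr5:120777660-120777829 (reverse strand) for Oas3, chr1:173741810-173741979 (reverse strand) for Ifi207, chr1:173630689-173630858 (forward strand) for Ifi209 and chr5:114896764-114896933 (forward strand) for Oasl2. Coordinates count from 1 on the forward strand. The Ifi209 and Oasl2 windows hold no match, which says only that these letters are not there.
Isg15: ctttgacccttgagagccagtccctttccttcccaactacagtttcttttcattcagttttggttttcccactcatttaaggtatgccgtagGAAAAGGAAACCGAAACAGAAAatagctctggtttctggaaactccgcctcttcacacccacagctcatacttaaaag
Ifit3: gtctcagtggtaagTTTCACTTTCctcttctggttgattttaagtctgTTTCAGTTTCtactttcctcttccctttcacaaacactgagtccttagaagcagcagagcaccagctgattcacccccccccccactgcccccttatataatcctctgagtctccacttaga
Gbp2: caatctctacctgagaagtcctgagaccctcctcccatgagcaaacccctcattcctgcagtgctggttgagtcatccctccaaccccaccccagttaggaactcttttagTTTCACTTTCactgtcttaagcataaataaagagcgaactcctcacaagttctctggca
Ddx60: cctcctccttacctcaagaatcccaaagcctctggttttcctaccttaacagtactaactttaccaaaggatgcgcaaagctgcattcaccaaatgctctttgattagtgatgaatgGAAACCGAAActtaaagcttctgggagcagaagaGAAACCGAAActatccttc
Oas3: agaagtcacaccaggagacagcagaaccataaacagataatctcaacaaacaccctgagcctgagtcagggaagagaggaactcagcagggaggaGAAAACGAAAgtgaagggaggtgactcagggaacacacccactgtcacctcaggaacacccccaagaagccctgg
Ifi207: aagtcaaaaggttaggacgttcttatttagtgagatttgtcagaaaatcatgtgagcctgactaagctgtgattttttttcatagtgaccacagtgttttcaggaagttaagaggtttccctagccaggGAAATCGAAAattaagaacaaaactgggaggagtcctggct
Ifi209: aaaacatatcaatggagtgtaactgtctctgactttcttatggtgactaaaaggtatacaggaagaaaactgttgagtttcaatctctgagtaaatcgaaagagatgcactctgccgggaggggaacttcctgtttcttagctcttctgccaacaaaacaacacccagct
Oasl2: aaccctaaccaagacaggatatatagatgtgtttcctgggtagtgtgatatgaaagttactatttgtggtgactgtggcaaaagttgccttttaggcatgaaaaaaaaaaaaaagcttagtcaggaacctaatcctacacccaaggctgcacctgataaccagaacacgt

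A match is a description of letters, not a bound site. Members with and without it were found among those called higher between types. Of the members called higher in mesothelial cells than in fibroblasts (FBs) with a window, 10 of 16 held a match, and of those called higher in macrophages (MΦs), 10 of 18 did. Of the members called lower with a window, 12 of 17 in smooth muscle cells (SMCs) and 9 of 9 in airway epithelial cells held one.

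The libraries differed in ways that touch every comparison below. Total UMIs (unique molecular identifiers, the counted molecules) ran from 6355125 in young library 2 to 50436562 in the 28-month library, and 15399 cells were kept. Both young libraries and the 24-month library shared more cell barcodes than chance gives (130 to 213 per pair, against 0.364 to 1.1 by chance), so results are also given without these 3. Most of the shared barcodes were airway epithelial cells, 137 of 155 between the young libraries. With the 24-month library they were 119 of 130 for young library 1 and 197 of 213 for young library 2. Whether the airway cells of these libraries are independent was not tested. The 20-month mouse is a male in the study's description, yet its library held 2384 UMIs of Xist beside 204 of the Y-linked gene Ddx3y. The Y-linked genes Eif2s3y, Kdm5d and Uty had only 2, 2 and 15 UMIs there, against 201, 70 and 377 in the 24-month library. Barcodes with fewer than 100 UMIs, which hold free RNA, carried 935.8 to 2011 CPM (counts scaled to a fixed library total) of the members. Cell types were clusters named by markers, formed without the members among the clustering genes. Erythroid markers, which reached 77446 CPM in T and NK cells of a library, spread through every type, and their part in the members' levels was not tested. Levels are CPM of counts summed over the cells of 1 type in 1 library, and a type with under 10 cells in a library was left out there. Since each library is a single mouse, p-values measure the spread between these libraries, whether it comes from the mice or from the preparation.

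Mesothelial cells and MΦs held the highest levels of most members. By the mean over libraries, 13 of the 45 members with a count were highest in mesothelial cells, 12 in MΦs and 8 in monocytes and dendritic cells, and the remaining types took between 1 and 3 each. In the 27- and 28-month libraries alone, which are the deepest, 15 were highest in MΦs, 12 in mesothelial cells and 9 in monocytes and dendritic cells. Summed over all members, mesothelial cells had 5501 CPM in the single young library with enough cells and 5015 ± 1366 CPM (SD, n = 4) in old libraries. In MΦs the sum was 4040 ± 416 CPM (n = 2) in young and 5411 ± 522 CPM (n = 4) in old libraries. FBs had 3237 ± 822 and 3705 ± 1110 CPM, blood endothelial cells (ECs) 3453 ± 922 and 3896 ± 1219 CPM, and SMCs 1673 ± 1110 and 1942 ± 1508 CPM (n = 2 and 3). B cells had 1930 ± 595 and 1659 ± 261 CPM (n = 2 and 3), and airway epithelial cells had 1877 ± 286 and 1613 ± 714 CPM. Ifitm3, which blocks virus entry from endosomes, and Bst2, the tetherin that holds virus at the cell surface, gave 2172 ± 29.2 CPM of the sum in young and 2081 ± 734 CPM in old MΦs, but only 107 ± 44.5 and 98.7 ± 48.5 CPM in B cells. Without these 2 membrane proteins, MΦs held 1868 ± 445 CPM in young and 3330 ± 631 CPM in old libraries, and mesothelial cells 2648 CPM and 2828 ± 562 CPM. Over libraries the sum ran from 3040 to 5969 CPM in mesothelial cells, from 3746 to 5871 CPM in MΦs, from 2696 to 5429 CPM in ECs and from 2264 to 4588 CPM in FBs, so that neighbours in this order overlapped.

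**Figure D1:**
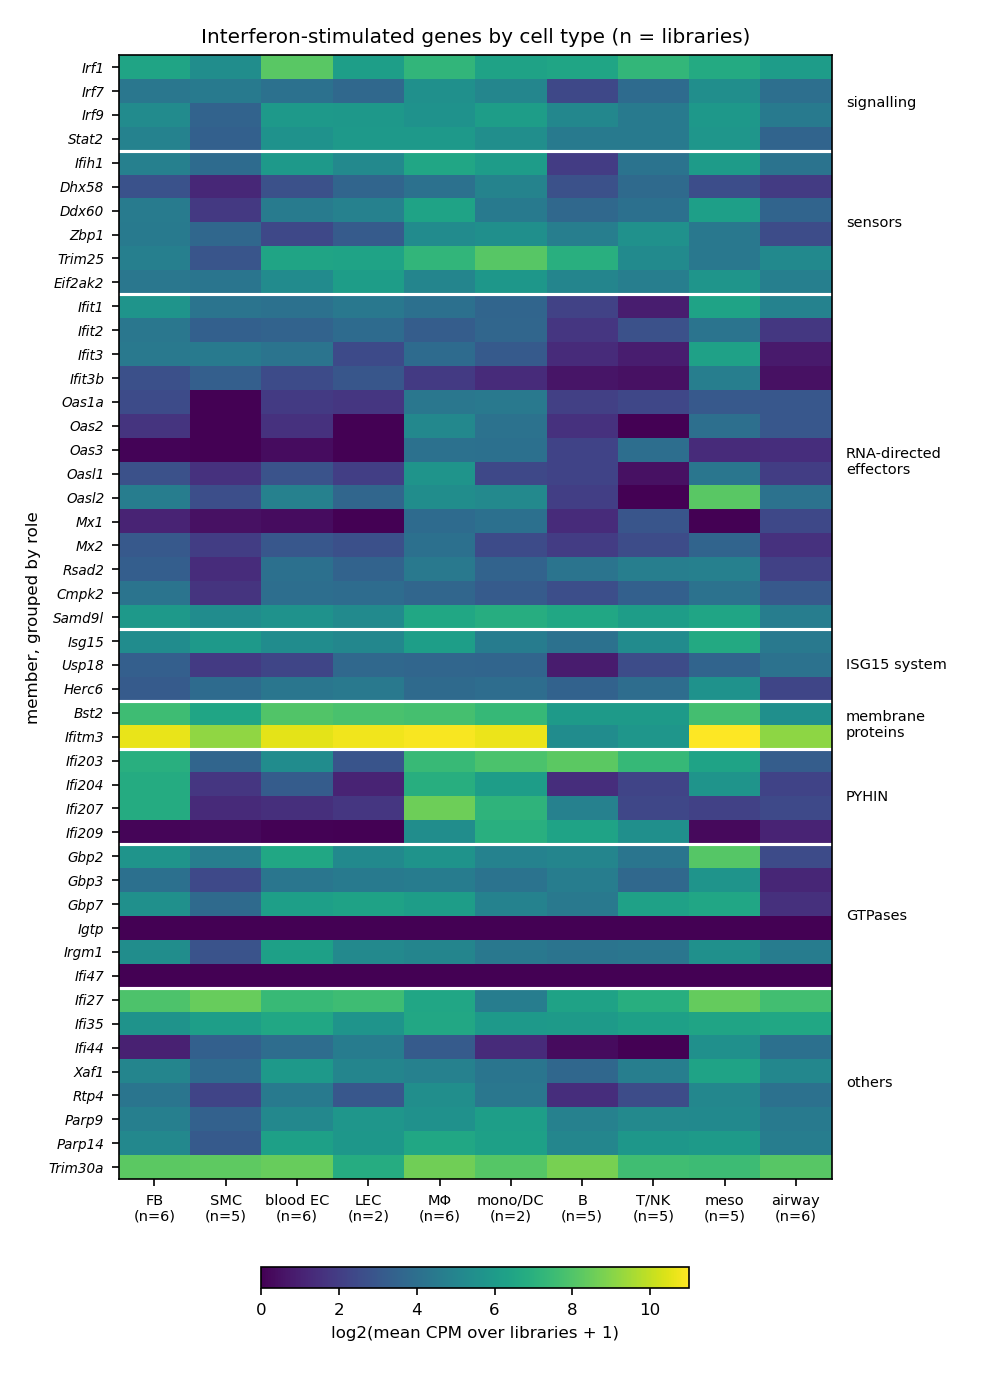
Mean level of each member, as log2 of the mean CPM over libraries plus 1 (colour), in each cell type (columns), with members grouped by role (rows). Mesothelial cells and MΦs carry the highest level of 13 and 12 of the 45 members with a count, and Ifi47 and Igtp, without a count anywhere, are at 0 in every column.

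Mesothelial cells, which line the surface of organs in the chest, were higher than FBs in genes of RNA defence and guanylate-binding proteins. Of 36 members tested, 16 were higher and 2 lower in mesothelial cells (edgeR's quasi-likelihood test with a library term, Benjamini-Hochberg adjusted p under 0.05, n = 5 libraries). Among all genes tested 14.5% were called higher and 15% lower. Oasl2, a relative of the oligoadenylate synthetases, stood at 185 CPM in young library 1 and at 234, 325, 353 and 359 CPM in the libraries of 20, 24, 27 and 28 months. In FBs of the same libraries it lay between 21.3 and 38.7 CPM. Every mesothelial library was therefore far above every FB library, with a log2 difference of 3.24 (SE 0.19, adjusted p = 5.5e-08). Ifi44, a cytoplasmic protein induced by type I interferon, lay between 21.7 and 69.2 CPM in mesothelial cells and between 0 and 3.01 CPM in FBs (log2 difference 4.14, SE 0.39, adjusted p = 3.41e-06). Gbp2, a guanylate-binding protein that attacks the vacuoles of intracellular pathogens, stood at 233 to 325 CPM against 28.4 to 105 CPM (log2 difference 2.12, SE 0.22, adjusted p = 7.4e-06). Both genes separated the types in all 5 libraries. Herc6, which attaches Isg15 to proteins in mice, was higher by 1.90 on the log2 scale (SE 0.30), and Ddx60, a helicase linked to RNA sensing, by 1.31 (SE 0.22). These 2 also had no overlap between the types, which makes 5 members in all. The share of all genes tested without such overlap was not counted, here or in the other type comparisons. Lack of overlap is therefore given as a description and not read as particular to the members.

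The roles were not raised alike in mesothelial cells. Of the RNA-directed effectors 6 of 8 tested were called higher, among them Ifit3, which binds foreign RNA, with a log2 difference of 1.65 (SE 0.31, adjusted p = 0.00105). Its relative Ifit1 had 1.03 (SE 0.39, adjusted p = 0.0833) and missed the threshold. Of the GTPases 3 of 4 were called higher, with Gbp3 at 1.44 (SE 0.26), and of the sensors 3 of 4. Xaf1, an interferon-induced promoter of cell death, had 1.27 (SE 0.21). None of the 4 signalling members was called: Irf1 had 0.13 (SE 0.25), Irf7 0.39 (SE 0.30) and Stat2 0.50 (SE 0.27). Usp18 (-0.19), Ifi203 (-0.50) and Ifi27 (0.40) were not called either. Neither membrane protein was called: Bst2 had -0.07, and Ifitm3 stood at 2110 ± 894 CPM in mesothelial cells and 1754 ± 501 CPM in FBs (n = 5). The 2 members that were lower belong to the DNA-binding PYHIN family, Ifi207 with -4.91 (SE 0.34, adjusted p = 2.6e-07) and Ifi204 with -1.40 (SE 0.19).

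These calls are described with the filter in mind. A gene was tested where more than 5% of cells held a count in at least 3 libraries of either type. The difference of a gene that passed only through its high type is not independent of this selection. Of the 16 higher calls, 7 passed through mesothelial cells alone, and 9 came from the 26 members that passed in both types, against 9.14% of all genes that passed in both. Ifi44, Herc6 and Ddx60 passed through mesothelial cells alone. The median log2 difference of the tested members was 0.59, against -0.02 for all genes tested. Without the libraries that share barcodes the counts were 16 higher and 2 lower. Without the 28-month library 9 members were called and without the 27-month library 10, since fewer genes then pass the filter. Isg15, the ubiquitin-like modifier, lost its call (log2 difference 0.96, SE 0.26) without the 28-month library, where it had 0.62 with an adjusted p of 0.115. Mesothelial sums held 5889 to 7671 CPM of FB markers beside 4081 to 6840 CPM of their own, and their part in the members' levels was not tested.

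**Figure D2:**
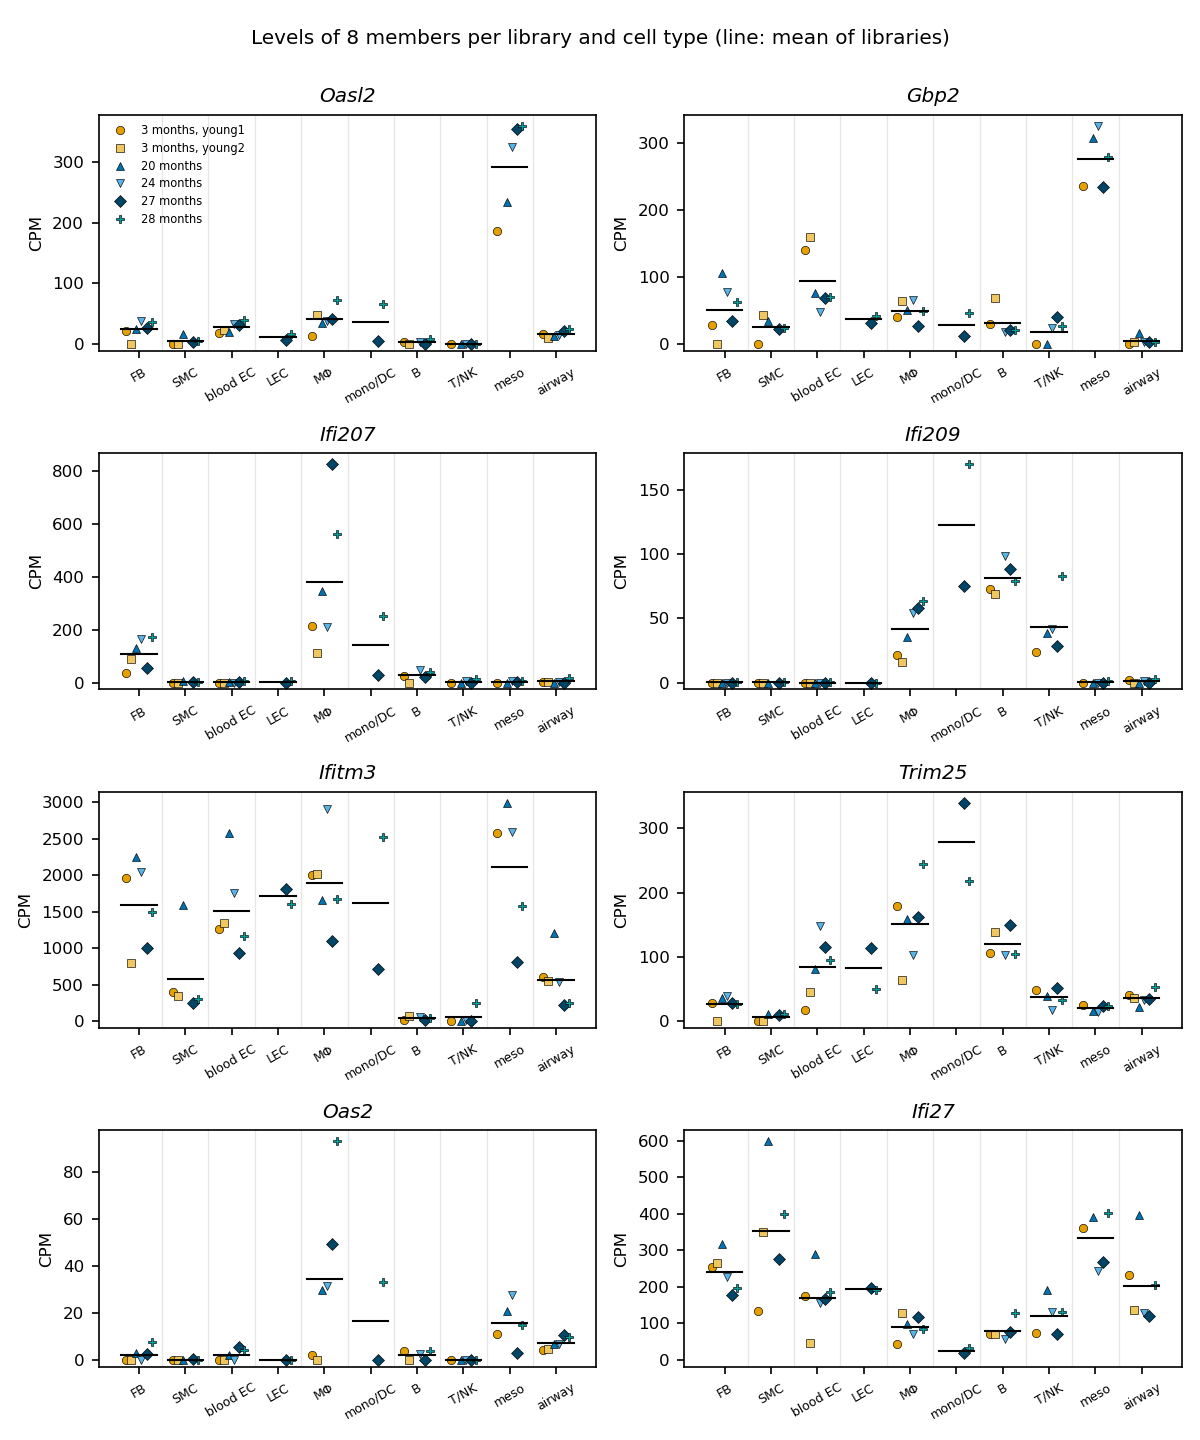
Level in CPM (linear axes from 0) of 8 members in each cell type, 1 point per library with the mean as a line. Oasl2 and Gbp2 stand highest in mesothelial cells in every library that has them, and Ifi207 stays under 19 CPM in SMCs, both EC types, T and NK cells, mesothelial cells and airway epithelial cells.

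MΦs were called higher than FBs in all signalling members and sensors and in 3 of 4 PYHIN members, though not in every library. Of 37 members tested, 24 were higher and 1 lower in MΦs (n = 6 libraries), where 31.4% of all genes tested were called higher and 18.5% lower. Trim25, a ubiquitin ligase that acts in RNA sensing, stood at 178 and 64.2 CPM in young MΦs and at 159, 103, 161 and 244 CPM in those of 20, 24, 27 and 28 months. In FBs it reached at most 38.7 CPM, so every MΦ library lay above every FB library (log2 difference 2.88, SE 0.30, adjusted p = 4.21e-07). Ifi209, a PYHIN member, had 352 counts in MΦs and 3 in FBs, a ratio of 167 (95% counting interval 56.8 to 815). Oas3, which makes the oligoadenylates that activate RNase L, had 105 counts against 2, a ratio of 74.9 (20.2 to 626). These intervals cover counting error only. Oas2, of the same family, differed by 4.27 on the log2 scale (SE 0.38, adjusted p = 9.2e-08), although young library 2 had 0 in both types. Oasl1, an inhibitor of Irf7 translation, had 4.38 (SE 0.51), with its highest MΦ level, 200.1 CPM, in the 20-month library and 4.30 to 42.2 CPM in the others. Ifi209, Oas3, Oas2 and Oasl1 passed the filter through MΦs alone, with counts in at most 3.93% of FBs of any library. Their p-values are therefore not independent of that selection.

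All 4 signalling members and all 6 sensors were called higher in MΦs than in FBs. Single libraries went the other way for some. In young library 1, MΦs were lower in Irf7 (23.6 against 35.5 CPM), Irf9 (49.4 against 49.7), Ddx60 (10.7 against 28.4) and Zbp1 (21.5 against 49.7), and higher in the rest. Young library 2 had Irf9 at 0 against 44.3 CPM, and no count of Ddx60, Zbp1 or Eif2ak2 in either type. Among old MΦs, Irf1 and Ddx60 were lower at 24 months, Eif2ak2 at 20 and Irf7 at 27. Stat2, the signal carrier of type I interferon, had a log2 difference of 1.22 (SE 0.28, adjusted p = 0.00148) and was higher in 6 of 6 libraries. Irf1, a transcription factor of the interferon response, had 1.15 (SE 0.29), and Irf7, which drives interferon genes, 1.13 (SE 0.36). Zbp1, a sensor of Z-form nucleic acids, had 1.44 (SE 0.35), and Dhx58, an RNA helicase of the sensing pathway, 1.93 (SE 0.38). Dhx58 also passed the filter through MΦs alone. The transmembrane receptor-transporting protein Rtp4 had 1.80 (SE 0.31) and the ADP-ribosyltransferase Parp14 had 1.78 (SE 0.32). Ifi207 had 2.25 (SE 0.43) and was higher in 6 of 6 libraries. Only Ifi27, a mitochondrial membrane protein, was called lower, with -1.08 (SE 0.27, adjusted p = 0.00337) and every MΦ library, at 43.0 to 128 CPM, below every FB library, at 178 to 319 CPM. The ISG15 system gave 0 calls of 3 tested: Isg15 had 0.70 (SE 0.31, adjusted p = 0.0729) and Usp18, which removes Isg15, 0.53 (SE 0.36, adjusted p = 0.241). Ifit1 had -0.58 (SE 0.34), Ifit3 0.39 (SE 0.36) and Gbp2 0.08 (SE 0.28), none of them called. Ifitm3, at 1896 ± 598 CPM in MΦs and 1594 ± 595 CPM in FBs, had 0.63 (SE 0.27, adjusted p = 0.0658).

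DESeq2 called 15 higher and 2 lower. Of the 24 higher calls of edgeR 7 passed the filter through MΦs alone, and 17 came from the 27 members that passed in both types, against 32.4% of all genes that passed in both. The members' median log2 difference was 1.15, against 0.28 for all genes. Without TMM scaling the median of all genes moved to -0.09, the share of calls that were higher fell from 62.95% to 45.81% of all calls, and the members gave 18 higher and 2 lower. Without the barcode-sharing libraries the counts were 22 higher and 1 lower. Leaving out the 20-month library left 11 members called, and leaving out the 27- or the 28-month library left 7. Several calls were lost without 1 library while the gene was still tested. Irf1 had an adjusted p of 0.154 without the 28-month library and 0.0798 without the 27-month library. Irf7 had 0.0802 without young library 2, and 0.0533 to 0.169 in the 9 of 15 alternatives that ended its call. Zbp1 had 0.0558, 0.125 and 0.188 without the libraries of 20, 27 and 28 months. Samd9l, which restricts translation, had 1.33 (SE 0.28), with adjusted p values of 0.0648 and 0.0505 without those of 27 and 28 months. Ifi203 had 1.04 (SE 0.32), with values of 0.0845, 0.372 and 0.244 without young library 2 and those of 27 and 28 months. Oasl2, at 0.98 (SE 0.29), lost its call in 6 of 15 alternatives (adjusted p 0.0566 to 0.278).

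Against ECs, MΦs were set apart in every library by 3 PYHIN members. Of 36 members tested, 16 were higher and 0 lower in MΦs (backgrounds 24.6% and 19.1%). At an unadjusted p under 0.05, 3 further members were higher and 1 lower, and the lower one is Ifi27 with -0.74 (SE 0.31). DESeq2 called 17 higher and 1 lower. Ifi207 lay between 112 and 825 CPM in MΦs and between 0 and 7.53 CPM in ECs (log2 difference 7.38, SE 0.48, adjusted p = 1.41e-08). Ifi209 had 352 counts against 1, a ratio of 326 (58.2 to 12900), and Ifi204 differed by 5.78 (SE 0.56). All 3 genes separated the types in every library. They passed the filter through MΦs alone, with counts in at most 2.25% of ECs of any library. Their p-values are therefore not independent of that selection. Ifi203 had 2.70 (SE 0.31), Zbp1 3.29 (SE 0.37), Oasl1 3.41 (SE 0.34), Oas2 4.11 (SE 0.41) and Ddx60 2.40 (SE 0.40). Oas3 had 4.88 (SE 0.60), on 105 counts against 4, and Rtp4 had 1.25 (SE 0.28). Irf7 (1.49) and Oasl2 (0.83) were also called higher. Ifitm3 (0.68), Isg15 (0.55), Stat2 (0.54), Ifit3 (0.07), Ifit1 (-0.09) and Gbp2 (-0.52) were not called. Irf1 had -0.39 (SE 0.27) and Bst2 0.03 (SE 0.23) and were not called. Of the 16 calls 11 passed the filter through MΦs alone. The other 5 came from the 21 members that passed in both types, against 18.1% of all genes that passed in both, so these lay near the background. Without TMM scaling there were 13 higher and 2 lower, without the barcode-sharing libraries 17 and 1. Without the libraries of 20, 27 and 28 months 8, 9 and 7 members were called.

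Between ECs and FBs 19 of 28 members tested were not called. In ECs 6 were higher and 3 lower in ECs (n = 6 libraries, backgrounds 17.8% and 20.2%). Trim25 was higher by 1.67 (SE 0.24, adjusted p = 1.1e-05), and Irf1 by 1.29 (SE 0.24, adjusted p = 0.00029). Irf1 stood at 193 and 251 CPM in young ECs and at 654, 410.2, 145 and 73.8 CPM in those of 20, 24, 27 and 28 months, and was higher than in FBs in 6 of 6 libraries. Xaf1 (0.84, SE 0.23), Parp14 (0.67, SE 0.22), Ifih1, the sensor of long double-stranded RNA (0.79, SE 0.25), and Ifi35 (0.68, SE 0.26) were also called. These 4 lost the call without the 28-month library (adjusted p 0.137, 0.0585, 0.0584 and 0.085) and without the 27-month library (0.106, 0.0685, 0.267 and 0.134). Ifi35 also lost it without the 20-month library (0.205) and without young library 2 (0.0681). Ifi207 (-5.07, SE 0.31), Ifi204 (-5.27, SE 0.36) and Ifi203 (-1.79, SE 0.26) were lower in ECs. Ifitm3, Bst2, Isg15, Gbp2 and Oasl2 had log2 differences between -0.21 and 0.46 and were not called. Stat2 (0.45), Ifi27 (-0.42), Irf7 (-0.41), Ifit1 (-0.50) and Usp18 (-1.16) were not called either. Without the libraries of 27 and 28 months 5 members were called each time, and without the barcode-sharing libraries the counts stayed at 6 and 3.

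SMCs, the contractile cells of the media, held less of most members than FBs. Of 28 members tested, 0 were higher and 22 lower in SMCs (n = 5 libraries, with 24.9% of all genes called higher and 16.8% lower). Ifi27 alone was higher at an unadjusted p under 0.05 (log2 difference 0.74, SE 0.31, adjusted p = 0.0514). DESeq2 called 0 higher and 18 lower, and over the alternatives 4 to 28 members were called. Ifitm3 stood at 400 and 351 CPM in young SMCs and at 1585, 255 and 306 CPM in those of 20, 27 and 28 months, against 1966, 796.6, 2257, 1005 and 1502 CPM in the matching FBs. It was lower in 5 of 5 libraries, though the 20-month SMCs reached the range of FBs (log2 difference -1.57, SE 0.31, adjusted p = 0.000247). Bst2 had -1.01 (SE 0.29) and Stat2 -1.28 (SE 0.22). PYHIN members were nearly absent: Ifi207 had -6.27 (SE 0.30), Ifi204 -6.28 (SE 0.36) and Ifi203 -6.40 (SE 0.57), with every SMC library below every FB library. In young libraries 1 and 2 this order rests on few counts. The 4 PYHIN members together had 0 and 1 counts in SMCs and 34 and 4 in FBs there. Oasl2 had -2.33 (SE 0.31), Ifih1 -2.13 (SE 0.25), Usp18 -2.97 (SE 0.47) and Ifit1 -1.71 (SE 0.30). Rtp4 had -2.41 (SE 0.39) and Parp14 -1.71 (SE 0.23).

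The lower calls in SMCs crossed all roles, with 3 of 4 signalling members, 3 of 3 PYHIN members tested and 4 of 4 GTPases. Isg15 (-0.37, SE 0.53) and Irf1 (-0.51, SE 0.48) were not called. Of the 22 calls 16 passed the filter through FBs alone, and 6 came from the 10 members that passed in both types, against 12.6% of all genes that passed in both. Irf7 and Usp18 were among those that passed through FBs alone. Irf7 had a log2 difference of -2.28 although the mean over libraries was 21.6 ± 37.9 CPM in SMCs and 20.3 ± 14.3 CPM in FBs (n = 5), since SMCs were higher in 1 library of 5. These 2 genes lost the call with DESeq2 (adjusted p 0.134 and 0.0654). The median log2 difference was -1.12, against 0.16 for all genes. Without TMM scaling the share of higher calls over all genes fell from 59.66% to 42.93%, and the members gave 1 higher and 23 lower. Without the barcode-sharing libraries the counts were 1 and 21. Without the libraries of 20, 27 and 28 months 11, 9 and 7 members were called. Bst2, Gbp2, Ifit1, Ifitm3 and Stat2 kept no call when the library term was left out (adjusted p 0.558, 0.275, 0.4104, 0.275 and 0.0539). FBs and SMCs of young libraries rested on 24 to 120 cells.

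Lymphocytes held less of the membrane proteins than FBs, and the PYHIN members went both ways in them. In B cells, 6 of 17 members tested were higher and 6 lower than in FBs (n = 5 libraries, backgrounds 36.9% and 25%). In T and natural killer (NK) cells 1 of 30 was higher and 8 were lower (n = 5 libraries, backgrounds 17.2% and 25.3%). Of 8 members that passed the filter in both types, B cells had 4 higher and 2 lower, against 51.96% and 4.78% of such genes. T and NK cells had 0 higher and 2 lower of 12, against 16.93% and 9.25%. The other calls passed through a single type. Ifi209 was the clearest higher gene, with 69.1 to 98.6 CPM in B cells and 24.2 to 83.0 CPM in T and NK cells against at most 0.57 CPM in FBs. In B cells it had 340 counts against 3, a ratio of 232 (78.8 to 1130), and in T and NK cells 54 against 3, a ratio of 179 (58.2 to 897). It passed the filter through the lymphocytes alone in both comparisons, so its difference is not independent of that selection. Ifi204 was lower in B cells (log2 difference -4.97, SE 0.49) and in T and NK cells (-3.84, SE 0.54), and so was Ifi207 (-1.0, SE 0.36, and -4.03, SE 0.55). Trim25 was higher in B cells by 2.60 (SE 0.34), with every library above every FB library. Ifitm3 stood at 14.5 to 69.1 CPM in B cells (log2 difference -5.03, SE 0.40) and at 0 to 243 CPM in T and NK cells (-5.44, SE 1.00). Free RNA held 199.8 to 757 CPM of Ifitm3, above the lymphocytes of the same library in every case.

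Oasl2 had 0 counts in T and NK cells against 290 in FBs, a ratio of at most 0.103 at the floor of 3 counts. Ifit1 had 2 counts against 243 there, a ratio of 0.082 (0.00988 to 0.3), and a log2 difference of -2.52 (SE 0.63) in B cells. Bst2 was lower in both lymphocyte types, by -0.88 (SE 0.33) in B cells and by -1.65 (SE 0.40) in T and NK cells. Ifi203, Samd9l, Trim30a and Irf1 were called higher in B cells (1.70, 1.28, 1.18 and 0.86). Samd9l lost that call without the libraries of 24 and 27 months (adjusted p 0.134 and 0.0711), and Trim30a without those of 24 and 28 months (0.169 and 0.125). Irf1 lost it without any of the 5 libraries (0.0988 to 0.806). In T and NK cells Gbp2 lost its lower call without the libraries of 20, 24 and 28 months (0.122, 0.1197 and 0.145), and Ifi27 without the 27-month library (0.0776). The all-gene median in B cells moved from 0.40 to -0.17 without TMM scaling, where the members gave 4 higher and 7 lower. The share of higher calls over all genes then fell from 59.56% to 39.52%. Without the barcode-sharing libraries T and NK cells gave 2 higher and 8 lower, and B cells could not be fitted.

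Airway epithelial cells held little of the GTPases and PYHIN members. Of 29 members tested, 1 was higher and 10 lower than in FBs (n = 6 libraries, backgrounds 24.8% and 19.2%). Of the 10 lower calls, 6 passed the filter through FBs alone. Among the 21 members that passed in both types 4 were lower, near the 15.5% of all such genes. Only 1 was higher, where 15.2% of all such genes were. Ifi35, which interacts with other interferon-induced proteins, was higher by 1.28 (SE 0.25, adjusted p = 0.000124) in 6 of 6 libraries. Gbp7 had 0 to 3.53 CPM in airway cells and a log2 difference of -3.93 (SE 0.46), and Gbp2 had -3.27 (SE 0.41) and Gbp3 -3.70 (SE 0.64). Ifi207 (-4.79, SE 0.50), Ifi204 (-5.39, SE 0.68), Ifi203 (-3.63, SE 0.38) and Bst2 (-1.71, SE 0.23) were below FBs in every library. Ifitm3 had -1.26 (SE 0.29) and Stat2 -1.22 (SE 0.35). Isg15, with -0.93 (SE 0.33), lost its call without the 28- or the 27-month library (adjusted p 0.121 and 0.106). Ifit1 had 0.07 (SE 0.44), and Usp18 (0.90), Ifi27 (0.08), Irf1 (-0.22), Oasl2 (-0.27) and Irf7 (-0.38) were not called either. Without TMM scaling the all-gene median moved from 0.10 to -0.27 and the share of higher calls from 56.35% to 38.7%, and the members gave 1 higher and 13 lower. Without the 28-month library 7 members were called, and the counts were 1 and 10 without the barcode-sharing libraries.

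Single cells with several members were found in every cell type, at shares that differed between libraries. Each cell was thinned to 500 UMIs so that depth did not set the count, and Ifitm3 and Bst2 were left out. In MΦs 3.90% and 8.96% of cells in the young libraries had UMIs of 3 or more different members. In the MΦs of 20, 24, 27 and 28 months this share was 23.1%, 9.80%, 20.6% and 25.2%. The 24-month library thus lay close to young library 2, and the other old libraries were higher. Without thinning the shares were 17.7% and 16.4% in young and 33.4% to 91.4% in old libraries. In mesothelial cells the thinned share was 11.9% in young library 1 and 5.81% to 23.6% in old libraries. In airway epithelial cells it was 0% to 2.72%, in SMCs 0% to 7.19% and in ECs 0% to 12.4%. A cluster of 99 neutrophils, not followed by library here, had 19.2%. The most members found in 1 thinned cell were 10, in a MΦ of the 28-month library.

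**Figure D3:**
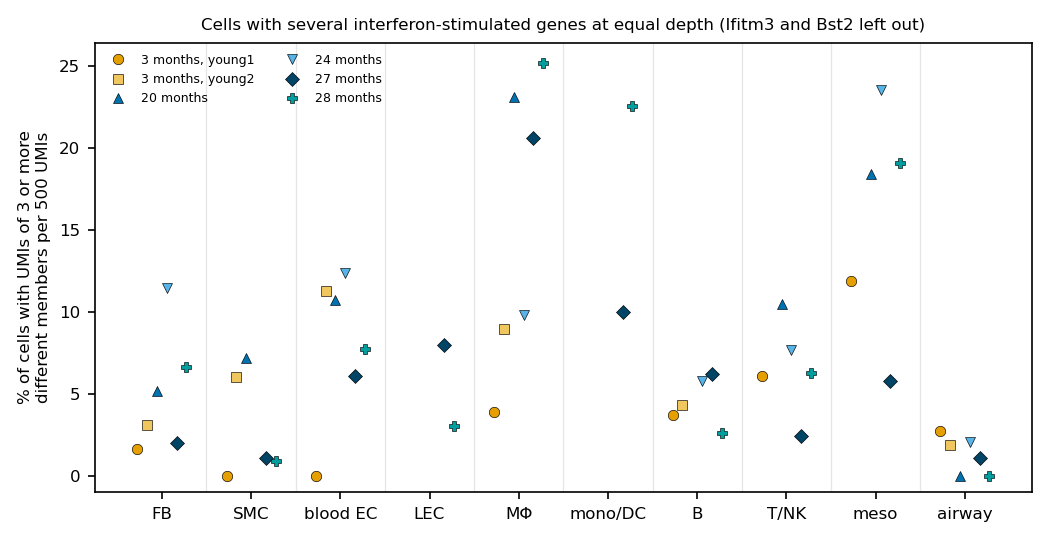
Percent of cells, after thinning each to 500 UMIs, with UMIs of 3 or more different members (Ifitm3 and Bst2 left out), per cell type, 1 point per library. MΦs of 20, 27 and 28 months reach 20.6% to 25.2%, while those of 24 months (9.80%) and both young libraries (3.90% and 8.96%) are lower.

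The MΦs of the libraries came from different clusters. A cluster of 806 cells led by Cxcl2, H2-Eb1 and Ccl6 held 409 cells of young library 1 and 299 of the 24-month library, and 5.71% of its cells had 3 or more members. A cluster of 444 cells led by Ccl8, C1qa and C1qb held 390 cells of the 28-month library, and 28.8% of its cells had 3 or more. Clusters of 176 and 114 cells held 175 cells of the 27-month and 113 of the 20-month library, with 25.0% and 25.4%. Median UMIs per MΦ were 898 and 780 in young libraries, 1026 in the 24-month library and 2388, 6098 and 5783 in those of 20, 27 and 28 months. MΦ subtype, library and depth therefore moved with age here and cannot be told apart from it.

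Old and young differed by no member past the adjusted threshold in any of the 6 types that could be fitted. In MΦs 36 members were tested and 0 called by edgeR and by DESeq2 (edgeR called 0% of all genes, DESeq2 3 of 5867), with 13 at an unadjusted p under 0.05 where 5.32% of all genes were. Only 10 of these 36 passed the filter in both ages and 26 passed through old libraries alone. The direction of these 26 is not independent of that selection. Oas2 had the smallest p: it stood at 2.15 and 0 CPM in young MΦs and at 29.4, 31.4, 49.3 and 92.8 CPM in those of 20, 24, 27 and 28 months. Every old library was above both young ones, but the young values rest on 1 count (411 counts against 1, a ratio of 37.9, counting interval 6.77 to 1500). Its log2 difference was 4.62 (SE 1.00, unadjusted p = 0.00113, adjusted p = 0.811), and the adjusted p ran from 0.0245 to 1.00 over 13 alternatives. Ddx60 stood at 10.7 and 0 CPM in young MΦs and at 94.2, 18.9, 172 and 201 CPM in old ones (3.66, SE 1.10, adjusted p = 0.811). It is thus lowest, among old libraries, in that of 24 months. Its adjusted p ran from 0.0058 to 1.00 over 13 alternatives. Parp14 (2.07, SE 0.65), Xaf1 (2.71, SE 0.86) and Ifit3 (3.24, SE 1.08) followed, each with every old library above both young ones and an adjusted p of 0.811.

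**Figure D4:**
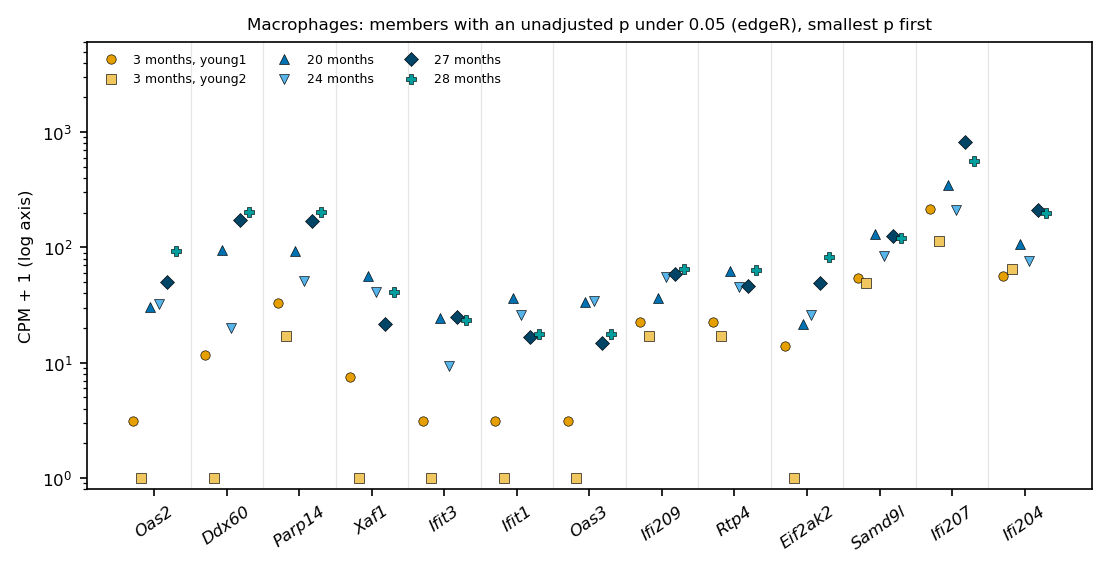
Level in MΦs of the 13 members with an unadjusted p under 0.05 between old and young, as CPM plus 1 on a log axis, 1 point per library, ordered by p. Old libraries lie above both young ones for all but Ifi207, and none of the 13 passed the adjusted threshold.

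The order of libraries in MΦs can also be described without the filter, though depth enters it. Of the 45 members with a count in MΦs, 20 had every old library above both young ones and 0 had every old library below, against 6.27% of all genes with a count for the first of these. Young MΦ sums held 1743 and 270 counts of the members, on 44 and 29 of them. Young library 2 had only 62297 UMIs in MΦs. A member at 0 there lies below once each old library has a count. The mean of old libraries was the higher one for 42 of 45 members and for 61.9% of all genes. Of the 10 members that passed the filter in both ages, 7 were higher and 3 lower in old MΦs, with a median log2 difference of 0.38. Samd9l (1.04, SE 0.43) and Ifi207 (1.37, SE 0.59) were among the higher, and Ifitm3 (-0.20, SE 0.61), Gbp2 (-0.11, SE 0.57) and Trim30a (-1.28, SE 0.64) were the lower. Over the 36 tested members the median was 1.30, and all genes tested had a median of 0.07. Alternatives that left fewer genes past the filter had other medians: 0.33 over the 10 members tested with cells thinned to 500 UMIs, and 0.68, 0.85 and 0.95 over the 17 tested without the libraries of 20, 27 and 28 months. The median was 0.79 with the barcode-sharing libraries as a covariate. Both young libraries share barcodes, so that fit sets only the 24-month library against them, the contrast described next. Within the 3 barcode-sharing libraries, 22 of 36 members were higher in the 24-month library than in both young ones, against 27.3% of all genes, with a median of 0.51 and no test. Of these 36 members, 26 had passed the filter through old libraries alone, so this count is not independent of that selection. Irf1 (0.56, SE 0.67), Irf7 (0.58, SE 0.88), Isg15 (1.49, SE 1.26), Stat2 (1.39, SE 0.66) and Zbp1 (1.53, SE 0.74) had positive log2 differences that did not pass.

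In FBs 28 members were tested and 0 called by either tool (edgeR called 0.0145% of all genes, DESeq2 4 of 6906), with 3 at an unadjusted p under 0.05 (8.02% of all genes). Eif2ak2, the kinase that halts translation on double-stranded RNA, had 298 counts in old and 0 in young FBs, at least 1.86-fold higher in old FBs at the floor of 3 counts. Ifih1 had 402 counts against 1, a ratio of 7.52 (1.34 to 298). Trim30a, a ubiquitin ligase, was the third, with a log2 difference of -1.65 (SE 0.69). Stat2 had 407 counts against 2, a ratio of 3.81 (1.05 to 31.5), and Ifi207 a log2 difference of 1.47 (SE 0.71). Of 45 members with a count, 13 had every old library above both young ones, against 10.3% of all genes. Young FB sums held 538 and 60 counts of the members, on 32 and 14 of them, so depth enters this order. Of the 28 tested members, 14 passed the filter through old libraries alone, Eif2ak2, Ifih1 and Stat2 among them. Their direction is not independent of that selection. In the 14 members that passed in both ages, 8 were higher and 6 lower in old FBs.

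In ECs 21 members were tested and 0 called by either tool (edgeR called 0% of all genes, DESeq2 1 of 5865), with 3 at an unadjusted p under 0.05 (5.64%). Gbp2 stood at 140.0 and 160 CPM in young ECs and at 76.2, 47.1, 68.4 and 70.2 CPM in old ones, so every old library was below both young ones (-1.15). Over libraries this is 149.8 ± 13.8 CPM (n = 2) against 65.5 ± 12.7 CPM (n = 4). Its adjusted p ran from 0.559 to 0.999 over the alternatives. Samd9l had 451 counts in old and 0 in young ECs, at least 2.67-fold higher in old, and Trim25 had 548 against 3, a ratio of 3.24 (1.1 to 15.8). Isg15 had 354 against 1, a ratio of 6.28 (1.12 to 249), and Trim30a a log2 difference of -1.78 (SE 0.81). Of the 21 members, 11 passed the filter through old libraries alone, Samd9l, Trim25 and Isg15 among them. Their direction is not independent of that selection. The 10 members that passed in both ages had 5 higher and 5 lower in old ECs, with a median log2 difference of -0.08. Of 45 members, 10 had every old library above both young ones, against 10.7% of all genes. Young EC sums held 160 and 180 counts of the members, on 20 and 26 of them, so depth enters this order.

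In SMCs 10 members were tested and 0 called (0% of all genes by edgeR), with 1, Trim30a (-3.43, SE 1.28), at an unadjusted p under 0.05 (8.14%). Ifi27 (1.22, SE 0.71) and Ifitm3 (1.43, SE 0.95) followed, then Samd9l with 1488 counts against 1, a ratio of 2.31 (0.414 to 91.3), and Irf9 with 386 against 0. Samd9l and Irf9 were among 7 of the 10 that passed the filter through old libraries alone, which selects their direction. Of 45 members, 24 had every old SMC library above both young ones, where 25.5% of all genes did. Young SMC sums held only 20 and 56 counts of the members, on 8 and 13 of them. A member at 0 in both young libraries lies below once each old library has a count, so depth enters this order. In B cells 10 were tested, with 0 called (0%) and 0 at an unadjusted p under 0.05 (7.18%), and 7 of 45 members had every old library above both young ones (10.3% of all genes). In B cells Trim30a (-0.96, SE 0.63), Samd9l (0.38), Irf1 (-0.35), Ifi209 (0.35) and Ifi27 (0.36) had the smallest p. In airway epithelial cells 22 were tested, with 0 called (0%) and 1, Ifih1 (0.99), at an unadjusted p under 0.05 (6.19%), and 4 of 45 had every old library above (4.32% of all genes). Parp14 (1.14, SE 0.58), Ddx60 (0.85), Trim30a (-2.25) and Stat2 (0.80) followed Ifih1 there. All of these but Trim30a were among the 11 of 22 that passed the filter through old libraries alone. Most barcodes shared between libraries were airway epithelial cells, so the airway libraries of this fit may not be independent. DESeq2 called 0 members in each of these types too. Mesothelial cells, T and NK cells, lymphatic ECs, and monocytes and dendritic cells had fewer than 2 young libraries and were not compared by age.

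Whether age acted differently in MΦs and ECs was tested as an interaction. Of 36 members 0 were called (0% of all genes) and 2, Xaf1 (3.39) and Samd9l (-7.99), had an unadjusted p under 0.05 (6.11% of all genes), both with an adjusted p of 0.792. Parp14 (1.70), Trim25 (-1.72) and Irf9 (1.33) followed. The reach of the age fits differed between types. In simulated data 4-fold changes were recovered in 2% of the changed genes in MΦs, 3% in SMCs, 8.5% in FBs, 11% in ECs, 27% in B cells and 58% in airway epithelial cells, and 16-fold changes in 69% to 99.5%. The simulated libraries were drawn independently, which the shared barcodes put in doubt for airway epithelial cells. Between types the same test recovered 97.5% of 4-fold changes for MΦs against FBs.

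Single libraries set some members apart in several cell types at once. Trim30a reached 893.8 to 1316 CPM in each of FBs, SMCs, ECs, MΦs, B cells and airway epithelial cells of young library 2. In the libraries of 27 and 28 months it lay between 15.8 and 267 CPM in those types. Free RNA held 1054 CPM of Trim30a in young library 2, 924 in young library 1, 686 in the 24-month library and 36.2 and 44.4 CPM in those of 27 and 28 months. Young library 2 was thus highest inside and outside cells, while young library 1 exceeded the 24-month library in free RNA and lay below it in FBs, ECs, MΦs, B cells and airway epithelial cells. The part of free RNA in the Trim30a of cells was not tested. In the 20-month library Ifi35 stood at 400.2 CPM in MΦs, 290 CPM in ECs and 302 CPM in SMCs, against 31.6 to 41.9 CPM in MΦs of the other libraries. Isg15 was at 256 CPM in MΦs and 192 CPM in SMCs of that library, against at most 48.2 CPM in MΦs of the others. Free RNA of that library held 65.7 CPM of Ifi35, against 19.7 to 31.3 CPM in the others, and 31.0 CPM of Isg15, against 11.6 to 60.0 CPM.

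**Figure D5:**
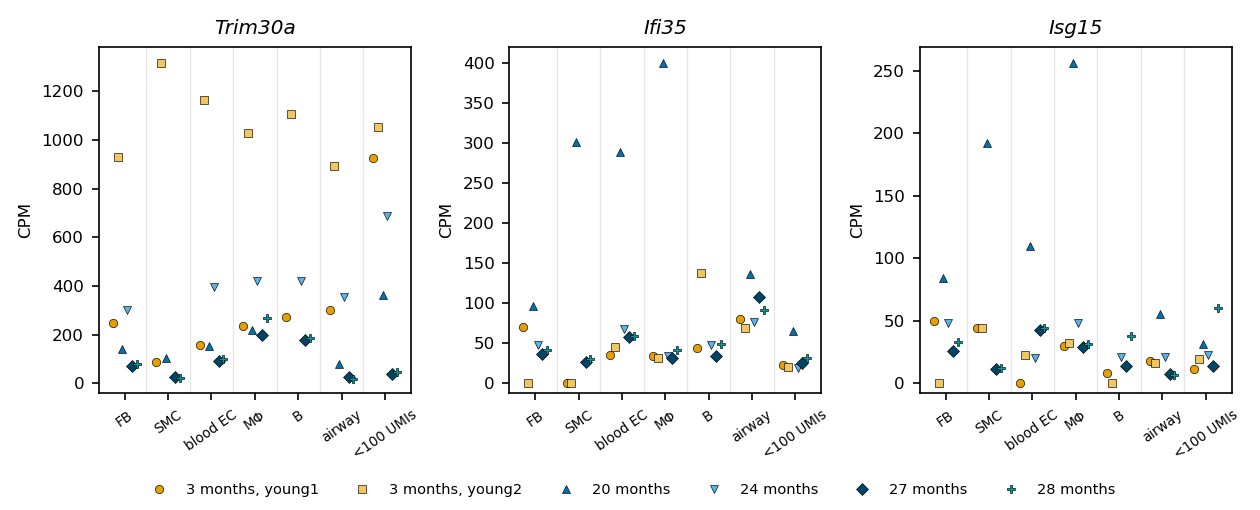
Level in CPM of the members that 1 library sets apart, per cell type and in barcodes under 100 UMIs (free RNA), 1 point per library. Trim30a is highest in young library 2 in the 6 types named in the text and in free RNA, and Isg15 and Ifi35 are highest in the 20-month library in MΦs.

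The genes upstream of the members were read from a list of 41 ligands, receptors, kinases, transcription factors, sensors and restraints. In MΦs against FBs 24 of these were tested, with 17 higher and 1 lower, where 31.4% and 18.5% of all genes were. Among them Ifnar1, a chain of the type I receptor, was higher by 1.66 on the log2 scale, and the kinase Tyk2 by 1.79. The DNA-sensing adaptor Sting1 had 2.62, and Socs1, which restrains the kinases, was the lower one with -1.67. In mesothelial cells 22 were tested, with 4 higher and 5 lower, and the receptor chain Ifngr1 and the kinase Jak1 were among the lower. In SMCs 20 were tested, with 2 higher and 7 lower, where Jak1 had -1.74 and Ifngr1 -1.70. ECs had 4 higher and 3 lower of 20, near the 17.8% and 20.2% of all genes. B cells had 7 and 3 of 15 (36.9% and 25% of all genes), T and NK cells 10 and 2 of 22 (17.2% and 25.3%), and airway epithelial cells 0 and 5 of 19 (24.8% and 19.2%). The shares of all genes were 14.5% and 15% for mesothelial cells and 24.9% and 16.8% for SMCs. Between ages 0 of these genes were called in any type, with 3 of 23 at an unadjusted p under 0.05 in MΦs.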

How the data were processed

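The deposited files are gene by barcode matrices of raw UMI counts, 1 per library, which the authors made from 3' single cell libraries. The submitters' processing notes name STAR, STARsolo, cutadapt and GRCm38.p6, with versions not given in the sources used here. A barcode was kept as a cell from 500 UMIs and 300 genes upward if mitochondrial UMIs made up no more than 20%, and 223 doublets were removed, leaving 15399 cells. Total UMIs ran from 6355125 to 50436562 per library, so values from the shallow libraries rest on few counts. Cells were clustered with scanpy 1.11.5 and Leiden (2000 variable genes without the members, 40 components, 15 neighbours, resolution 1.5) and named by markers, where over 40% and at least 3 of a type's markers were raised 4-fold. Of 38 clusters 1, of 356 cells, stayed unnamed.

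Counts were summed per library and type where at least 10 cells were found. Genes detected in over 5% of the cells of 3 or more libraries, a filter taken from the study, were tested with edgeR 4.0.16 (TMM, robust quasi-likelihood test, Benjamini-Hochberg adjustment over all genes, threshold 0.05) in R 4.3.3. Type comparisons had a library term. The alternatives were DESeq2 1.42.0, other scalings, gene filters and cell filters, doublets kept, cells thinned to 500 UMIs, members among the clustering genes, fits without the library term or in old libraries only, barcode sharing as a covariate, and leaving out each library. Fits without the barcode-sharing libraries were chosen after seeing the data. Scripts were tested on simulated data. Where a group had 0 counts, a floor of 3 counts was used, and ratios have 95% counting intervals. The members and lists were chosen with earlier results of these data known.

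In each comparison the members to name were those with an adjusted p under 0.05, at most the 10 with the smallest p, the 5 with the smallest unadjusted p, and 15 representatives (Ifit1, Ifit3, Isg15, Irf1, Irf7, Stat2, Oasl2, Ifitm3, Bst2, Ifi27, Gbp2, Igtp, Zbp1, Usp18, Ifi203). The text does not give every representative in every comparison. Others (Ifi35 and Trim30a by library, and the further MΦ genes by age) were named after their values were seen.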

Additional observations from a re-analysis of the deposited data

Results flagged for a closer look

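Of 143 sets of 4 old libraries examined for a library far from the rest, 13 held one. The rule flags about 1 in 20 sets of independent, normally distributed values, which these are not. Summed sets overlap with their single members, and some sets hold 0 in all old libraries but 1. The 13 are therefore not read against that rate. The 20-month library accounted for 6 of the 13. Its summed ISG15 system (Isg15, Usp18 and Herc6) was 297.2 CPM in MΦs, against 57.5 to 65.4 CPM in the other old libraries, and 123.9 CPM in ECs, against 74.0 to 79.2 CPM. Its Isg15 in MΦs was 256 CPM, against 29.1 to 48.2 CPM, and its summed signalling members in MΦs were 562.1 CPM, against 259.7 to 301 CPM. In its airway epithelial cells Irf7 was 38.92 CPM, against 6.62 to 9.46 CPM, and Gbp2 was 16.22 CPM, against 2.94 to 3.68 CPM.

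In the 28-month library Ifit3 stood apart in FBs at 29.82 CPM, against 14.5 to 15.02 CPM. Its T and NK cells had Ifitm3 at 242.7 CPM, against 0 to 17.8 CPM, and Ifit1 and Ifit3 each at 4.149 CPM, against 0 in the other old libraries. These cells held 482101 UMIs, against 25988 to 173395 in the other old libraries, where a level this low could go uncounted. In the 24-month library Ifit3 stood apart in MΦs at 8.376 CPM, below 22.6 to 24.0 CPM, and in airway epithelial cells at 3.683 CPM, above 0. The 27-month mesothelial cells held 543.2 CPM of the summed remaining members (Ifi27, Ifi35, Ifi44, Xaf1, Rtp4, Parp9, Parp14 and Trim30a), below 926.8 to 947.2 CPM. Barcodes with fewer than 100 UMIs, which enter no comparison, carried a median of 1908 CPM of the members over 6 libraries.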

How the results depend on the processing

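Of 257 counts of called members under alternatives, 34 moved by more than 1.5 times. Counts without 1 library ran from 7 to 23 in SMCs against FBs, 5 to 10 in ECs, 7 to 28 in MΦs, 9 to 12 in B cells, 6 to 10 in T and NK cells, 9 to 19 in mesothelial cells, 7 to 11 in airway epithelial cells and 7 to 18 in MΦs against ECs, and stayed at 0 in every age comparison and the interaction. With edgeR's own filter the counts were 11 in SMCs, 12 in MΦs, 5 in T and NK cells and 10 in MΦs against ECs, and 1 by age in B cells. With cells thinned to 500 UMIs they were 4 in SMCs, 4 in ECs, 7 in MΦs, 7 in B cells, 5 in T and NK cells, 6 in mesothelial cells, 4 in airway epithelial cells and 2 in MΦs against ECs. Without the library term they were 11 in SMCs, 4 in ECs, 15 in MΦs and 7 in B cells. With no gene filter they were 14 in ECs, and 1 in SMCs and 2 in MΦs by age. For single members 3380 of 3698 values kept their direction and their side of the threshold, 125 lost a call, 49 gained one, 144 that were not called changed sign, and no called one did. Of 262 medians over the members 14 changed sign. Age fits of FBs, SMCs, ECs, B cells and the interaction with 1000 UMIs and 500 genes, the barcode covariate by age in SMCs, and B cells without the barcode-sharing libraries could not be fitted. Low depth limits values from both young libraries and the 20-month library, which hold the fewest total UMIs. It also limits those of the 24-month library, where median UMIs per cell were lower than in the 20-month library. They were 646 against 1915 in ECs and 1026 against 2387.5 in MΦs.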
